A study of Mus musculus with 32 samples.

Results

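The CCN genes Ctgf, Cyr61, Nov, Wisp1 and Wisp2, together with Ankrd1, were followed across 32 mouse libraries. These 6 genes were chosen by name, under the older symbols the count tables use, and with earlier results of these data known. They are 6 of the 23284 genes listed in each of a lesion table and a culture table. The lesion table held brachiocephalic arteries of C57BL/6 mice after 18 weeks on a Western diet, labelled as a mixture of cell types, from 4 Oct4 -/- (KO) and 4 wild-type (WT) animals. The culture table held primary aortic smooth muscle cells of the same strain, a single KO line and a single WT line. Each line was given POVPC, an oxidized phospholipid found in lesions, or vehicle, in hypoxia (1% oxygen) or in normoxia, which made 8 groups of 3 libraries. Dose, duration and age are not given in the sources used here. In the study's publication, though not in the labels, Oct4 was deleted in smooth muscle cells by a tamoxifen-inducible Cre driven by the Myh11 promoter, in Apoe-deficient animals of both genotypes. Because each genotype is 1 line in culture, genotype and line cannot be told apart there, and p-values measure the spread between triplicates of a line. A gene was called where edgeR's quasi-likelihood test gave a Benjamini-Hochberg false discovery rate (FDR) under 0.05 over all genes tested.

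CCN proteins are secreted, modular proteins of the extracellular matrix that bind integrins and growth factors. Ctgf and Cyr61 are textbook targets of YAP and TAZ, the coactivators that the Hippo kinases hold in the cytoplasm and that bind DNA through TEAD factors, and both genes also respond to stretch, serum and TGF-beta. Ankrd1 encodes a muscle ankyrin repeat protein that shuttles between the sarcomere and the nucleus, and it is the third gene commonly read as a YAP reporter. Nov, a CCN member linked to Notch1 and to quiescence of vascular smooth muscle, Wisp1, a Wnt-induced member that promotes proliferation, and Wisp2, which lacks the C-terminal module of the family and restrains smooth muscle growth and motility, complete the group.

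The 6 genes lay at different loci in mm9, the build of the count tables. Ctgf was at chr10:24315248-24318488 on the plus strand, Cyr61 at chr3:145309935-145312949 on the minus strand, Nov at chr15:54577483-54585316 and Wisp1 at chr15:66722955-66754761 on the plus strand, Wisp2 at chr2:163646570-163658883 on the plus strand, and Ankrd1 at chr19:36186455-36194334 on the minus strand. The CCN genes were counted over 5 exons each and Ankrd1 over 9, introns left out. RefSeq promoter windows (GRCm38.p6) were at hand for 2 of the 6 genes, Cyr61, listed there as Ccn1, and Ankrd1. Both windows are shown, and the part of their letters in the changes described below was not tested. Each is the 250 bases before the transcription start, read 5′ to 3′ on the minus strand, with the letters of the TEAD element, GGAATG or its reverse complement CATTCC, in capitals.
Cyr61, chr3:145649986-145650235: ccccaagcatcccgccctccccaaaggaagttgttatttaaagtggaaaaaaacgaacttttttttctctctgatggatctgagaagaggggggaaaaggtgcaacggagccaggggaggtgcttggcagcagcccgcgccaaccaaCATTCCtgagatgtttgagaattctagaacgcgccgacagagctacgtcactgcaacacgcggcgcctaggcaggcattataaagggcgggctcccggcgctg
Ankrd1, chr19:36119845-36120094: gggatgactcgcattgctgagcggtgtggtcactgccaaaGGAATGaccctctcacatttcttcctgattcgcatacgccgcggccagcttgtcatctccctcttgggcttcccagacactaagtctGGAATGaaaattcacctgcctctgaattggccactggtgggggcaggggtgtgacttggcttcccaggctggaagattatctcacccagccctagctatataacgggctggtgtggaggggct
The TEAD letters stood once in the Cyr61 window, at -103 to -98 from the start on the opposite strand, and at 2 places in the Ankrd1 window, at -210 to -205 and -123 to -118. Over the 32851 RefSeq promoter windows of 250 bases before to 50 after the start, 14.7% held GGAATG on either strand and 1.36% held it at least 2 times. TATAAA, the TATA box, stood in Cyr61 at -25 to -20 (13.6% of windows). The hypoxia element core ACGTG (19.6% of windows), the AP-1 element TGANTCA (7.81%) and the CArG box bound by SRF (1.63%) were searched on both strands and matched neither window, which says only that these letters are not there.

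Libraries held 6526099 to 11137414 counts in lesions and 8063121 to 30231799 in culture, and the culture libraries WT POVPC hypoxia 1 and 2 and KO vehicle hypoxia 3 were the shallowest. These libraries also had 5.79, 9.24 and 8.07 alignments to several places per assigned count, against 0.74 to 3.88 in the other culture libraries. The part of this in the values below was not tested. Pou5f1, which encodes Oct4, had 0 counts in KO lesions and 3 counts in WT lesions, all in 1 animal, and single libraries of KO POVPC normoxia, KO vehicle hypoxia and WT vehicle normoxia held 2, 1 and 1 counts. The genotype labels can therefore not be checked by this gene. The cultured cells carried low levels of contractile markers. Myh11 averaged 0.24 to 0.56 CPM in the 4 KO groups and 0.24 to 5.15 CPM in the 4 WT groups, against 1833 CPM in KO lesions and 2778 CPM in WT lesions, and the matrix gene Dcn, a fibroblast marker, averaged 213 to 4347 CPM over the culture groups. CPM here are counts relative to the library's total, with a TMM factor that corrects for composition.

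Scaled for gene length, Ctgf was the most abundant of the 6 genes in lesions. In KO and WT lesions it averaged 829 ± 210 and 1163 ± 247 TPM (SD, n = 4 each). Nov followed with 272 ± 39.9 TPM in KO and 372 ± 75.1 TPM in WT, then Cyr61 with 200 ± 40 and 245 ± 66.1 TPM, and Wisp2 with 174 ± 57.5 and 187 ± 66.8 TPM. Ankrd1 (18.3 ± 5.84 TPM in KO and 18.3 ± 5.48 TPM in WT) and Wisp1 (11.3 ± 4.36 and 10.6 ± 3.72 TPM) were lowest. The remaining CCN gene, Wisp3, had 13 counts over the 4 KO lesions and 19 over the 4 WT lesions, and at most 18 over any culture group, and was not tested.

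None of the 6 genes differed between KO and WT lesions beyond the spread between animals, and the groups overlapped for every one. Ctgf had 632, 649, 882 and 1113 CPM in the 4 KO animals, against 763, 1150, 1293 and 924 CPM in the 4 WT animals. Its highest KO value lay above 2 of the WT animals. The fitted difference was -0.33 ± 0.23 on the log2 scale (SE, edgeR FDR 0.529), with a 95% interval of -0.84 to 0.18. Nov had 215, 241, 294 and 307 CPM in KO lesions, against 261, 359, 407 and 273 CPM in WT lesions, a difference of -0.30 ± 0.17 (FDR 0.457, interval -0.69 to 0.09). Both genes had their 2 lowest values in KO animals and their 2 highest in WT animals. Cyr61 had 114, 180, 186 and 187 CPM in KO lesions and 129, 159, 250 and 198 CPM in WT lesions (-0.14 ± 0.22, FDR 0.79). KO animal 1 was the lowest of all 8.

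The fitted difference between KO and WT lesions was 0.26 ± 0.33 for Wisp1 (FDR 0.745), 0.05 ± 0.32 for Wisp2 (FDR 0.946) and 0.16 ± 0.28 for Ankrd1 (FDR 0.812). Wisp1 had 18.1, 14.9, 23.9 and 36.6 CPM in KO and 15.3, 20.4, 29.2 and 13.3 CPM in WT, Wisp2 93.8, 107, 113 and 194 CPM in KO and 96.4, 157, 164 and 72.7 CPM in WT, and Ankrd1 10.5, 9.67, 13.4 and 19.8 CPM in KO and 7.48, 16.1, 13.8 and 10.4 CPM in WT. In each of these 3 genes KO animal 4 was the highest of all 8, and without KO animal 4 and WT animal 1 the differences were -0.16 for Wisp1, -0.34 for Wisp2 and -0.28 for Ankrd1. Of all genes, edgeR called 0 of 14993 in lesions (0% called), with 2216 at an unadjusted p under 0.05, and DESeq2 called 489. In this tissue fewer cells of a type and less RNA per cell cannot be told apart. The summed CPM of 6 macrophage markers was 3402 to 8232 in KO and 2014 to 3061 in WT lesions, with 6 of 6 fitted higher in KO and 0 called. That of 6 smooth muscle markers was 3783 to 5646 and 5430 to 8271, with 6 of 6 fitted lower. For 12 striated muscle markers, whose tissue expresses Ankrd1 strongly, it was 16.8 to 35.7 in KO and 25.7 to 53.5 in WT, with 11 of 11 tested fitted lower. The largest median difference, -1.22, was that of the chondrocyte markers, with sums of 148 to 510 CPM in KO and 227 to 1835 CPM in WT and 5 of 5 tested fitted lower. Adventitial fibroblast markers (7 of 7) and endothelial markers (6 of 6) were fitted higher in KO, and peripheral nerve (5 of 5) and epithelial markers (4 of 4 tested) lower, with 0 called. None of these markers was at 0 in every lesion of a genotype, and their part in the values above was not tested.

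**Figure D1:**
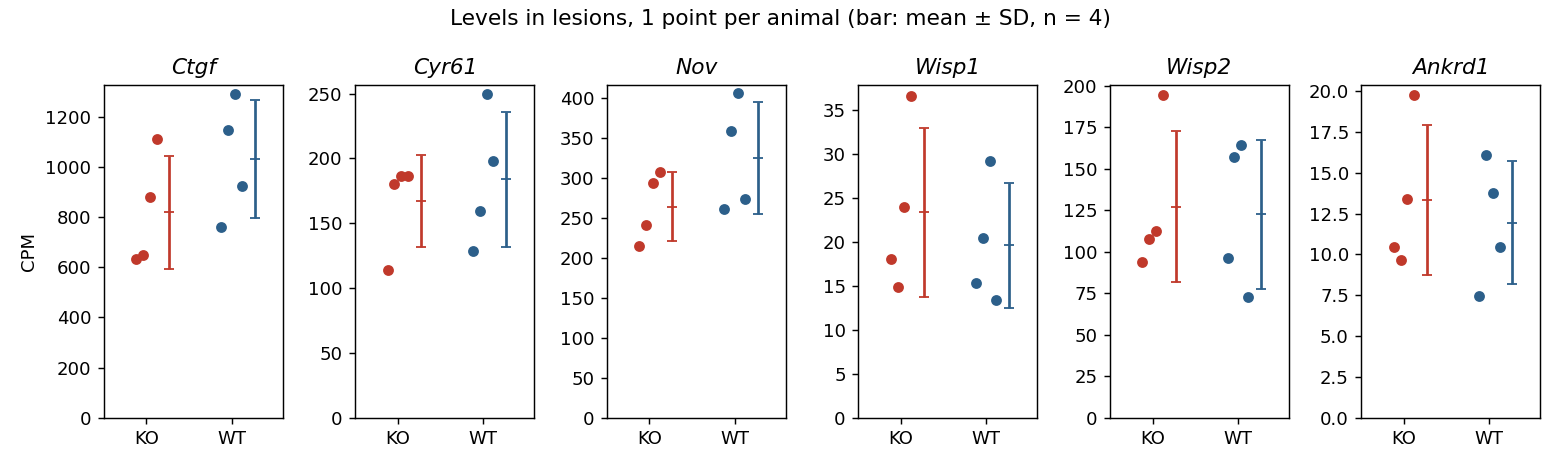
CPM of the 6 genes in lesions, 1 panel per gene, KO animals at left and WT animals at right of each panel. Points are animals in label order and bars give the mean ± SD of 4. KO and WT overlap in every panel, as for Ctgf at 632 to 1113 CPM in KO and 763 to 1293 CPM in WT.

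In hypoxia the 6 genes moved in both directions. Ctgf and Ankrd1 were higher and Cyr61, Nov, Wisp1 and Wisp2 lower in hypoxia than in normoxia, in both lines and with POVPC as with vehicle. All 6 genes were called in each of the 4 comparisons, where 68.5% of all tested genes were called in the KO line with POVPC, 65.4% in the KO line with vehicle, 66.1% in the WT line with POVPC and 68.1% in the WT line with vehicle. By direction, the calls in those comparisons were 34.5% higher and 33.9% lower, 32.6% higher and 32.8% lower, 31.8% higher and 34.3% lower, and 32.8% higher and 35.3% lower. A called change was thus the usual outcome for a gene. How many of all genes had groups without overlap was not counted, here or in the culture comparisons below.

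Ctgf had 206, 221 and 189 CPM in KO hypoxia with vehicle, against 59.9, 77.6 and 80.6 CPM in KO normoxia. In the WT line it had 1100, 1047 and 1090 CPM in hypoxia and 334, 296 and 293 CPM in normoxia. Every hypoxic library was above every normoxic one of its line, and the rise was 1.5 ± 0.10 in the KO line (edgeR FDR 6.51e-13) and 1.81 ± 0.10 in the WT line (FDR 7.01e-15). With POVPC it was 1.84 ± 0.11 in the KO line and 2.09 ± 0.11 in the WT line. The rise in the KO line minus that in the WT line was -0.31 ± 0.14 with vehicle (FDR 0.0889) and -0.25 ± 0.14 with POVPC (FDR 0.206), with 95% intervals of -0.61 to -0.02 and -0.55 to 0.05. Without KO vehicle normoxia 1 the difference with vehicle was -0.44 (FDR 0.00994).

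Ankrd1 also rose, with a called difference between the lines. It had 96.9, 95.1 and 92.3 CPM in KO hypoxia and 9.43, 9.46 and 10.2 CPM in KO normoxia with vehicle, a rise of 3.29 ± 0.10 (FDR 1.39e-21), or 9.77-fold. WT cells had 66.4, 67.1 and 64.4 CPM in hypoxia and 13.2, 16.4 and 13.7 CPM in normoxia, a rise of 2.19 ± 0.09 (FDR 2.58e-18), or 4.56-fold. With POVPC the gap widened. The 127, 100 and 124 CPM of KO hypoxia stood against 6.74, 7.27 and 7.75 CPM in KO normoxia, a rise of 4.01 ± 0.10, while the 36.2, 41.4 and 43.0 CPM of WT hypoxia stood against 27.3, 24.7 and 26 CPM in WT normoxia, a rise of 0.63 ± 0.09. The hypoxia effect was larger in the KO line than in the WT line by 1.10 ± 0.13 with vehicle (FDR 1.02e-07, 39.1% of all genes called) and by 3.38 ± 0.13 with POVPC (FDR 1.75e-17, 30% called).

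Cyr61, the other classical YAP target, moved the opposite way to Ctgf. It had 157, 161 and 155 CPM in KO hypoxia and 368, 403 and 413 CPM in KO normoxia with vehicle, and 193, 189 and 184 CPM in WT hypoxia and 301, 312 and 321 CPM in WT normoxia. No hypoxic library reached a normoxic one of the same line. The fall was -1.32 ± 0.09 in the KO line (FDR 5.73e-14) and -0.72 ± 0.08 in the WT line (FDR 1.21e-08), a difference of -0.60 ± 0.12 (FDR 0.000177). With POVPC the falls were -1.02 ± 0.08 in the KO line and -0.99 ± 0.09 in the WT line, and their difference was -0.02 ± 0.12 (FDR 0.919, interval -0.27 to 0.22).

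Wisp2, the member without the C-terminal module, fell most. It had 1.90, 1.48 and 1.83 CPM in KO hypoxia with vehicle (45, 31 and 18 counts), against 330, 292 and 246 CPM in KO normoxia. WT hypoxia with vehicle had 1.54, 2.14 and 2.37 CPM (44, 39 and 70 counts), against 80.0, 73.1 and 73.2 CPM in WT normoxia. The groups were far apart in both lines, with changes of -7.38 ± 0.17 in the KO line (FDR 5.38e-22) and -5.23 ± 0.16 in the WT line (FDR 6.41e-20), which correspond to 167-fold and 37.5-fold lower. The difference between the lines was -2.16 ± 0.25 with vehicle (FDR 1.11e-07). With POVPC Wisp2 had 2.03, 1.54 and 1.51 CPM in KO hypoxia and 242, 252 and 239 CPM in KO normoxia, and 1.06, 0.82 and 0.31 CPM in WT hypoxia (14, 6 and 8 counts) and 80.9, 89.7 and 94.2 CPM in WT normoxia. The changes were -7.16 ± 0.17 and -7.14 ± 0.20, and the hypoxic libraries of both lines lay at 0.31 to 2.37 CPM whatever the level in normoxia. The difference of these changes, -0.02 ± 0.55 (FDR 0.987, interval -1.16 to 1.12), rests on few counts and was 0.91 without the 3 shallowest libraries. Its SE and interval are rough, as the SE is derived from the F statistic and is not built from those of the 2 changes.

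Wisp1, the Wnt-induced member, fell more in the WT line. It had 13.9, 14.9 and 15.7 CPM in KO hypoxia and 25.5, 28.4 and 27.2 CPM in KO normoxia with vehicle, a change of -0.88 ± 0.12 (FDR 1.71e-07). In WT hypoxia it had 30.4, 22.2 and 25.4 CPM and in WT normoxia 162, 168 and 164 CPM, a change of -2.66 ± 0.11 (FDR 1.8e-18). WT normoxia stood above the other 3 groups, and the hypoxia effect was 1.78 ± 0.16 higher, that is less negative, in the KO line with vehicle (FDR 3.76e-10) and 1.39 ± 0.16 with POVPC (FDR 8.02e-08). Nov had 2.28, 1.67 and 0.815 CPM in KO hypoxia (54, 35 and 8 counts) and 6.25, 8.02 and 6.21 CPM in KO normoxia with vehicle (-1.98 ± 0.25, FDR 7.92e-08). WT cells had 7.84, 7.19 and 9.58 CPM in hypoxia and 33.4, 26.2 and 26.4 CPM in normoxia (-1.80 ± 0.19, FDR 2.05e-09). The fall in the KO line minus that in the WT line was -0.18 ± 0.31 (FDR 0.686, interval -0.82 to 0.46).

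Most adventitial fibroblast markers were lower in hypoxia too. The summed CPM of 7 such markers was 894 to 944 in KO hypoxia and 3643 to 4330 in KO normoxia with vehicle, and 578 to 636 in WT hypoxia and 4644 to 4691 in WT normoxia. In a WT normoxia group most of the sum was Dcn, at its highest mean given above. Of the 7, 6 were called lower and 0 higher in the KO line with vehicle (median -2.41) and in both lines with POVPC. In the WT line with vehicle 4 were called lower and 2 higher (median -0.71). Lum was at 0 in all libraries of both WT hypoxia groups. The 6 smooth muscle markers summed to 67.7 to 72.3 CPM in KO hypoxia and 127 to 182 CPM in KO normoxia, and to 69.4 to 81.0 CPM in WT hypoxia and 313 to 367 CPM in WT normoxia, all with vehicle. Of these 6, 2 were called lower and 1 higher in the KO line with vehicle (median -0.53), and 5 lower and 1 higher in the WT line (median -3.13). With POVPC 3 were called lower and 1 higher in the KO line (median -0.32), and 5 lower and 0 higher in the WT line (median -1.79). The 5 epithelial markers went the other way, with sums of 260 to 307 CPM in KO hypoxia and 89.7 to 105 CPM in KO normoxia, and of 509 to 668 CPM in WT hypoxia and 12.4 to 13.5 CPM in WT normoxia with vehicle. Nearly all of this was Krt19, at a mean of 276 CPM in KO hypoxia and 571 CPM in WT hypoxia, while Epcam averaged 0.042 and 0.078 CPM there and was at 0 in all normoxic libraries. With POVPC the epithelial sums were 255 to 270 CPM in KO hypoxia and 144 to 204 CPM in WT hypoxia. Of the 4 tested, 3 were called higher and 1 lower in the KO line with either treatment, 2 higher and 1 lower in the WT line with vehicle, and 2 higher and 0 lower in the WT line with POVPC. The part of these markers in the changes of the 6 genes was not tested.

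**Figure D2:**
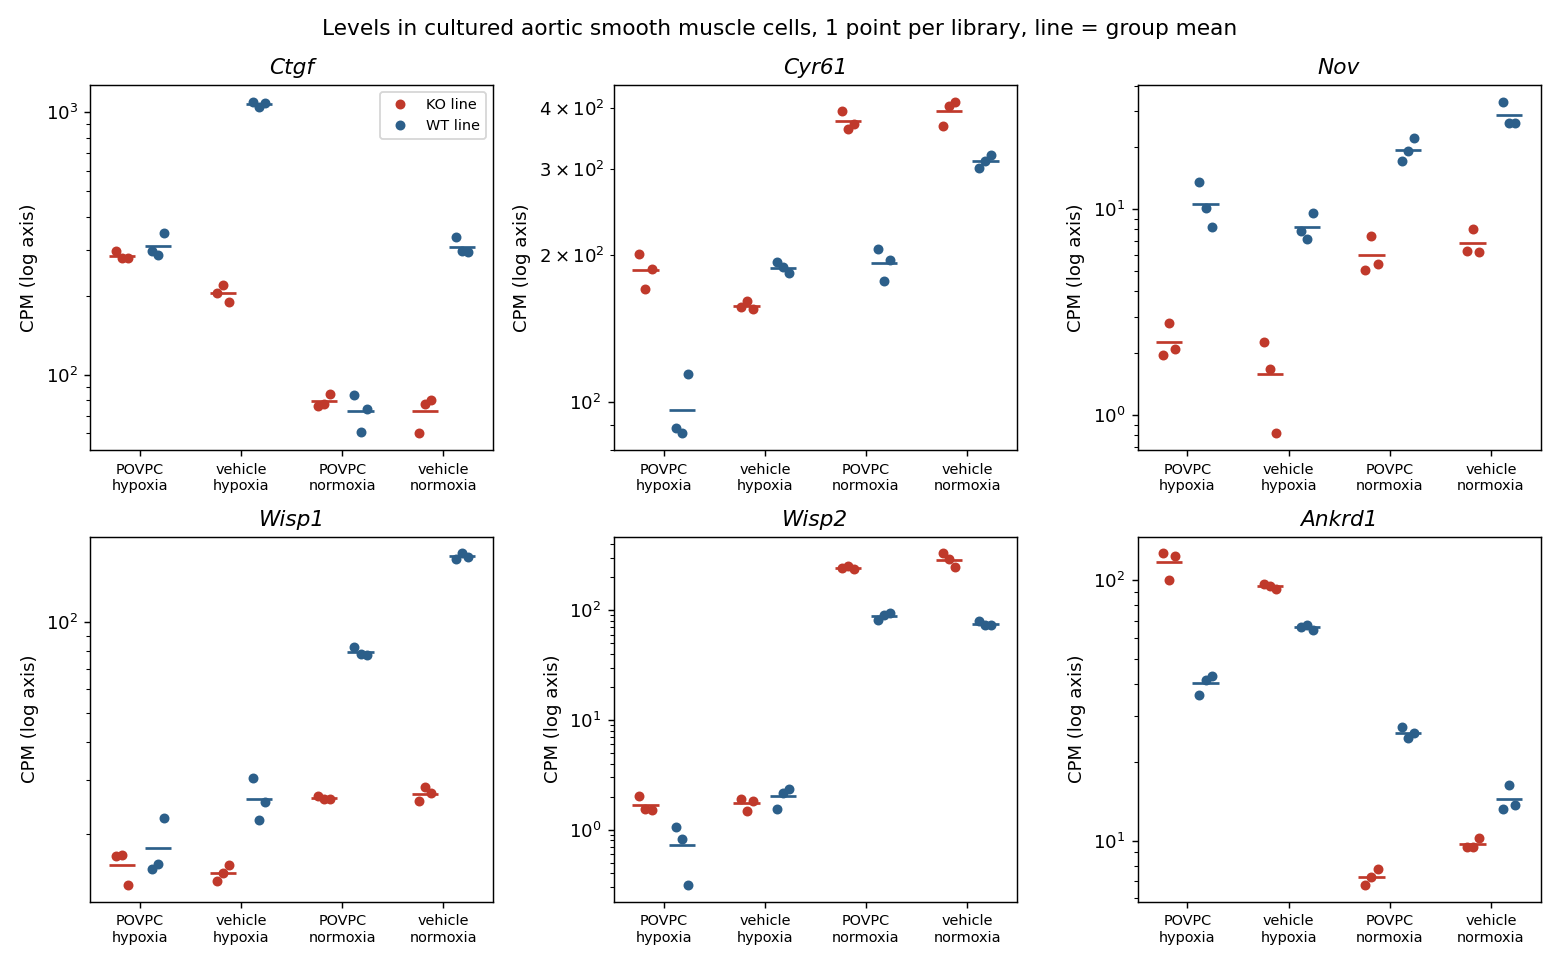
CPM (log axis) of the 6 genes in the 24 culture libraries, 1 panel per gene, with the KO line at left and the WT line at right of each condition. Points are libraries and lines are group means of 3. Ctgf stands out in WT vehicle hypoxia at 1047 to 1100 CPM, and Wisp2 lies at 0.31 to 2.37 CPM in all hypoxic libraries and at 73.1 to 330 CPM in all normoxic ones.

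Between the lines, Ctgf, Nov and Wisp1 were lower in KO than in WT cells under vehicle, in hypoxia and in normoxia. With vehicle in hypoxia 5 of 6 genes were called (59.9% of all tested genes), and with vehicle in normoxia 6 of 6 (60.6%). Ctgf, from the libraries given above, was -2.39 ± 0.11 in hypoxia (FDR 5.67e-17), or 5.26-fold lower, and -2.08 ± 0.11 in normoxia (FDR 7.47e-16), or 4.24-fold lower. Nov was -2.25 ± 0.24 in hypoxia (FDR 7.22e-09) and -2.07 ± 0.19 in normoxia (FDR 3.3e-10). Wisp1 was -0.82 ± 0.12 in hypoxia (FDR 5.8e-07) and -2.60 ± 0.11 in normoxia (FDR 5.34e-18). KO and WT libraries did not overlap for any of these 3 genes. The share of all genes without overlap was not counted, so this sets the 3 genes apart from no others. Markers of several cell types differed between the lines as well. With vehicle in hypoxia 5 of 7 adventitial fibroblast markers were called higher and 0 lower in KO cells (median 1.65), 3 of 4 epithelial markers higher and 1 lower (median 2.31), and 0 of 6 smooth muscle markers higher and 2 lower (median -0.11). In normoxia 5 fibroblast markers were called higher and 2 lower (median 4.90), 3 epithelial markers higher and 0 lower (median 2.49), and 1 smooth muscle marker higher and 5 lower (median -2.41). The summed CPM of the fibroblast markers went the other way in normoxia, at 3643 to 4330 in KO and 4644 to 4691 in WT cells. In hypoxia it was 894 to 944 in KO and 578 to 636 in WT cells. The part of all these markers in the differences of the 6 genes was not tested.

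Ankrd1 and Cyr61 changed the order of the lines with oxygen. Ankrd1 was higher in KO than in WT cells with vehicle in hypoxia (0.52 ± 0.09, FDR 7.28e-06) and lower in normoxia (-0.57 ± 0.10, FDR 1.22e-05), without overlap in either. Cyr61 did the reverse on a small scale, at -0.26 ± 0.08 in hypoxia (FDR 0.00971) and 0.34 ± 0.08 in normoxia (FDR 0.000856). Wisp2 was -0.22 ± 0.22 in hypoxia, where KO and WT overlapped (FDR 0.406, interval -0.67 to 0.23), and 1.94 ± 0.12 higher in KO cells in normoxia (FDR 2.82e-13). With libraries scaled by size alone the Cyr61 value in normoxia was 0.20 and was not called (FDR 0.105). The tests of these differences between oxygen levels are the differences of the hypoxia effect between the lines given above.

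With POVPC the picture between the lines differed for Ctgf. It had 297, 280 and 278 CPM in KO and 298, 285 and 346 CPM in WT cells in hypoxia, and 76.4, 77.4 and 84.8 CPM in KO and 83.5, 60.8 and 74.1 CPM in WT cells in normoxia. KO and WT overlapped in both, with differences of -0.12 ± 0.10 in hypoxia (FDR 0.325, interval -0.33 to 0.09) and 0.13 ± 0.10 in normoxia (FDR 0.293, interval -0.08 to 0.34). Of the 6 genes 4 were called between the lines with POVPC in hypoxia (57.6% of all tested genes) and 5 in normoxia (60.2%). Cyr61 was higher in KO cells in both. It had 201, 170 and 187 CPM in KO and 88.5, 86.3 and 114 CPM in WT cells in hypoxia (0.94 ± 0.09, FDR 1.69e-10), and 395, 363 and 372 CPM in KO and 206, 177 and 196 CPM in WT cells in normoxia (0.97 ± 0.08, FDR 5.75e-11). Every KO library exceeded every WT library.

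Ankrd1 with POVPC was 1.54 ± 0.09 in hypoxia (FDR 1.54e-14) and -1.84 ± 0.10 in normoxia (FDR 9.98e-16), KO against WT. Nov was lower in KO cells, at -2.21 ± 0.23 in hypoxia (FDR 4.22e-09) and -1.71 ± 0.19 in normoxia (FDR 1.31e-08). Wisp2 was higher in KO cells, at 1.45 ± 0.30 in hypoxia (FDR 0.000205) and 1.47 ± 0.12 in normoxia (FDR 5.21e-11). Both groups were near 1 CPM in hypoxia, and without WT POVPC hypoxia 3 the Wisp2 value there was 0.81, and without the 3 shallowest libraries it was 2.39. Wisp1 was -0.21 ± 0.12 in hypoxia (FDR 0.127), where the groups overlapped, and -1.60 ± 0.11 in normoxia (FDR 2e-13). In hypoxia it was -0.33 (FDR 0.0313) without WT POVPC hypoxia 1, -0.31 (FDR 0.0341) without WT POVPC hypoxia 2, -0.31 (FDR 0.0428) without KO POVPC hypoxia 1 and 0.025 without WT POVPC hypoxia 3.

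With POVPC, Ctgf, Cyr61 and Wisp1 were lower than with vehicle in the WT line, in hypoxia and in normoxia, and fewer of the 6 genes were called in the KO line. In the KO line 2 of the 6 genes were called in hypoxia (4.06% of all tested genes) and 0 in normoxia (0.0414%, 6 genes). In the WT line 5 of 6 were called in hypoxia (21% of all tested genes) and 5 of 6 in normoxia (26.9%). These comparisons share their vehicle libraries with those between the lines under vehicle. Smooth muscle markers were lower with POVPC in WT normoxia too, with 5 of 6 called lower and 1 higher (median -1.55) and sums of 160 to 195 CPM with POVPC and 313 to 367 CPM with vehicle. In WT hypoxia 2 were called lower and 0 higher (median -0.19), with sums of 36.9 to 51.2 CPM with POVPC and 69.4 to 81.0 CPM with vehicle, and their part in the values below was not tested. Ctgf in the KO line, from the values above, was 0.47 ± 0.10 in hypoxia (FDR 0.00616, or 0.0543 without KO vehicle hypoxia 3) and 0.13 ± 0.10 in normoxia (FDR 0.742). In the WT line it was -1.80 ± 0.10 in hypoxia (FDR 7.72e-13), or 3.48-fold lower, and -2.08 ± 0.11 in normoxia (FDR 5.75e-15), or 4.23-fold lower. The effect of POVPC in the KO line minus that in the WT line was 2.27 ± 0.15 in hypoxia (FDR 3.39e-11) and 2.21 ± 0.15 in normoxia (FDR 4.47e-12). In those tests 9.37% and 16.2% of all genes were called.

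Cyr61 in the KO line was 0.24 ± 0.08 in hypoxia (FDR 0.111) and -0.07 ± 0.08 in normoxia (FDR 0.827), and in the WT line -0.96 ± 0.09 in hypoxia (FDR 2.22e-09) and -0.69 ± 0.08 in normoxia (FDR 1.73e-07). The difference between the lines was 1.20 ± 0.12 in hypoxia (FDR 1.16e-07) and 0.62 ± 0.12 in normoxia (FDR 0.000289). Wisp1 was -0.05 ± 0.11 in KO normoxia (FDR 0.921). In WT normoxia it had 82.8, 78.1 and 77.4 CPM with POVPC and 162, 168 and 164 CPM with vehicle, a change of -1.05 ± 0.10 (FDR 4.14e-09). In WT hypoxia it was -0.51 ± 0.12 (FDR 0.00197) between overlapping groups, and -0.22 (FDR 0.381) without the 3 shallowest libraries. Nov was 0.35 ± 0.20 in WT hypoxia (FDR 0.227) and -0.56 ± 0.18 in WT normoxia (FDR 0.0192), a call lost without WT vehicle normoxia 1 (FDR 0.128) or WT POVPC normoxia 1 (FDR 0.097) or 2 (FDR 0.0606). Wisp2 was -1.69 ± 0.29 in WT hypoxia (FDR 0.000132), where all libraries were under 3 CPM, and 0.23 ± 0.12 in WT normoxia (FDR 0.167). Without WT POVPC hypoxia 3 the Wisp2 change was -1.05, and without the 3 shallowest libraries it was -2.67.

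The POVPC effect on Ankrd1 differed in sign between hypoxia and normoxia. In the KO line it was 0.30 ± 0.09 in hypoxia (FDR 0.041) and -0.42 ± 0.10 in normoxia (FDR 0.269), with a hypoxia minus normoxia difference of 0.73 ± 0.14 (FDR 0.00527, 0.642% of all genes called). The call in KO hypoxia was lost in 9 of the alternatives (FDR 0.0539 to 0.227), among them those without any of KO vehicle hypoxia 1, 2 or 3 or KO POVPC hypoxia 1 or 3. In WT hypoxia it had 36.2, 41.4 and 43.0 CPM with POVPC and 66.4, 67.1 and 64.4 CPM with vehicle (-0.71 ± 0.09, FDR 1.23e-06). In WT normoxia it had 27.3, 24.7 and 26 CPM with POVPC and 13.2, 16.4 and 13.7 CPM with vehicle (0.85 ± 0.09, FDR 2.99e-08). The groups did not overlap, and the hypoxia minus normoxia difference of the POVPC effect was -1.56 ± 0.13 (FDR 2.44e-10, 23.5% of all genes called). KO minus WT, the POVPC effect on Ankrd1 was 1.02 ± 0.13 in hypoxia (FDR 2.94e-06) and -1.27 ± 0.14 in normoxia (FDR 7.32e-08). The share of counts on the ribosomal RNA gene Rn45s was 3.23 to 11.1% with POVPC and 1.31 to 1.5% with vehicle in WT normoxia. In WT hypoxia it was 4.2 to 7.09% with POVPC and 2.11 to 3.47% with vehicle. In the KO line the ranges overlapped, at 3.75 to 8.31% with POVPC and 2.95 to 4.06% with vehicle in hypoxia. They were 1.71 to 3.94% with POVPC and 1.29 to 8.02% with vehicle in KO normoxia. The part of this share in these values was not tested.

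**Figure D3:**
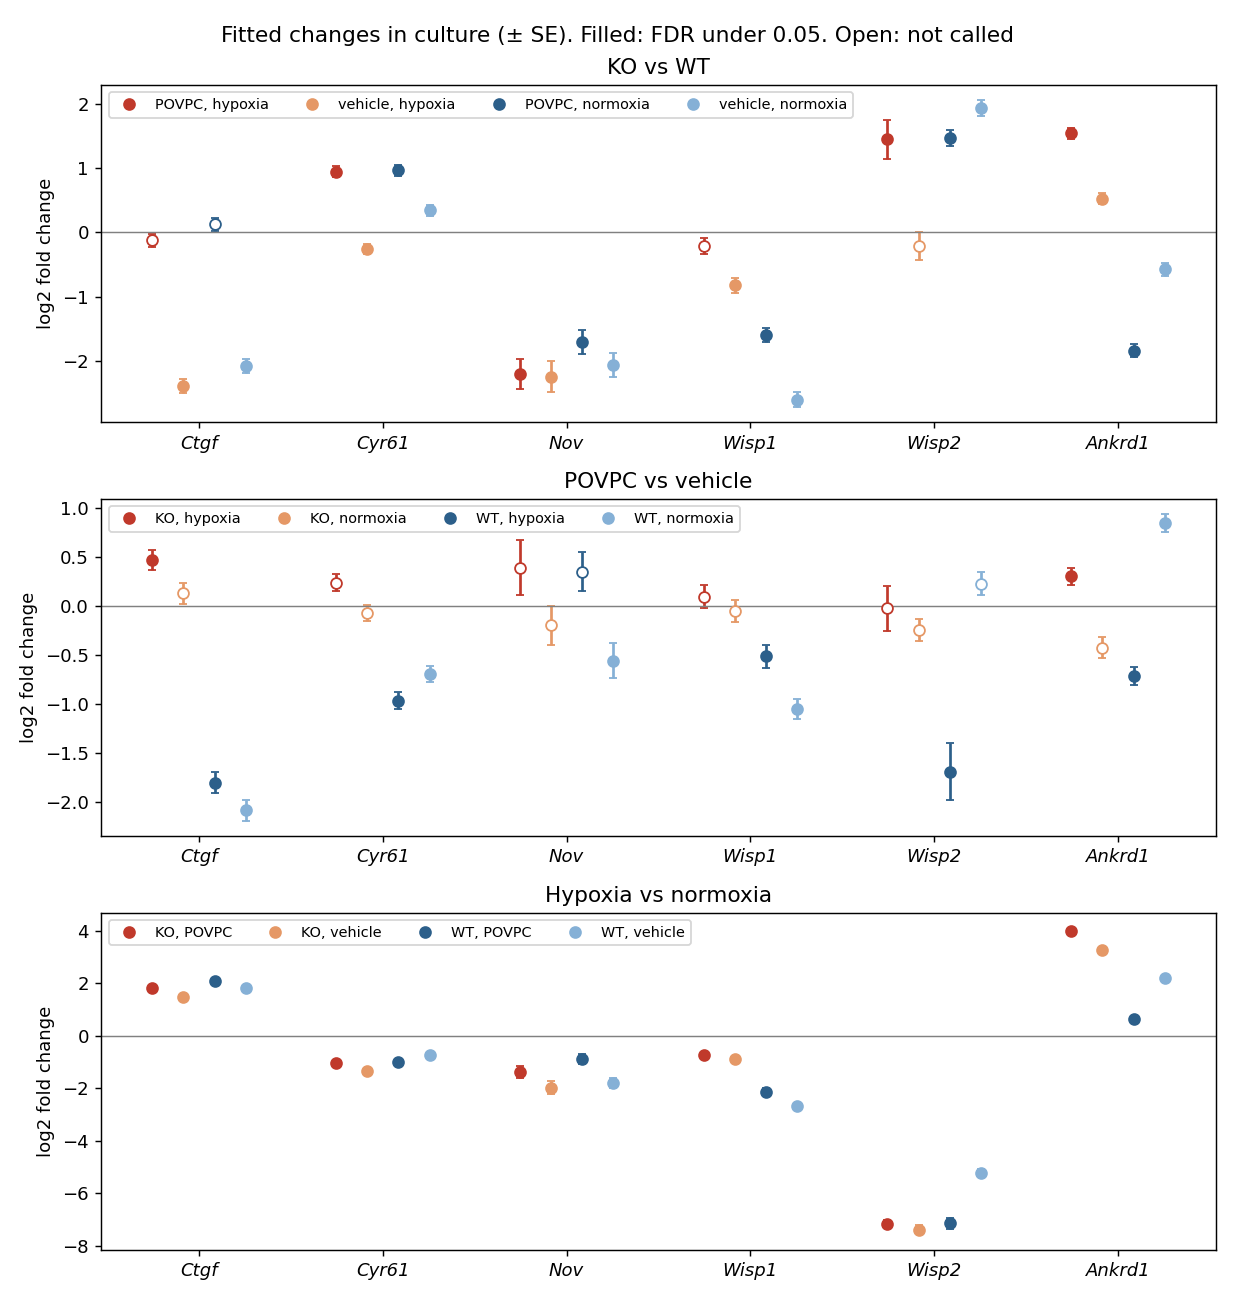
Fitted log2 fold changes (± SE) of the 6 genes between KO and WT (top), POVPC and vehicle (middle) and hypoxia and normoxia (bottom), with the other factors named in the legends. Filled points have an edgeR FDR under 0.05. In the bottom panel Ctgf and Ankrd1 lie above 0 and the other 4 genes below 0 in all 4 settings, and in the middle panel Ctgf lies at 0.47 and 0.13 in the KO line and at -1.80 and -2.08 in the WT line.

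POVPC and hypoxia together, against vehicle in normoxia, gave 6 of 6 called genes in the KO line and 5 of 6 in the WT line (68% of all tested genes in each). The exception was Ctgf in the WT line, with 298, 285 and 346 CPM under both agents and 334, 296 and 293 CPM under neither. The groups overlapped and the difference was 0.01 ± 0.10 (FDR 0.951, interval -0.20 to 0.22), while in the KO line Ctgf was 1.97 ± 0.11 higher (FDR 1.58e-15). Ankrd1 was 3.59 ± 0.10 higher in the KO line (FDR 1.44e-22) and 1.48 ± 0.10 higher in the WT line (FDR 3.89e-14). Wisp1 fell by 0.78 ± 0.11 in the KO line and by 3.17 ± 0.12 in the WT line. Cyr61, Nov and Wisp2 fell in both.

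Over the 8 culture groups the mean CPM of the highest group exceeded that of the lowest 396-fold for Wisp2, 18.1-fold for Nov, 16.1-fold for Ankrd1, 14.8-fold for Ctgf, 11.1-fold for Wisp1 and 4.09-fold for Cyr61. Ankrd1 was the only one of the 6 whose 8 groups, put in order of their means, did not overlap at any of the 7 neighbouring pairs, from 117 CPM in KO POVPC hypoxia to 7.25 CPM in KO POVPC normoxia. How many of all genes are ordered in this way was not counted. For Ctgf the ranges of WT POVPC hypoxia, WT vehicle normoxia and KO POVPC hypoxia overlapped in the middle of the order (309, 308 and 285 CPM), as did those of the 3 lowest groups, KO POVPC normoxia, WT POVPC normoxia and KO vehicle normoxia (79.5, 72.8 and 72.7 CPM). For Wisp1 the 6 lowest groups formed an overlapping chain from 27 to 14.8 CPM, below WT POVPC normoxia and WT vehicle normoxia.

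Other YAP and TAZ targets were called in both directions in hypoxia, more of them lower than higher. The list counts that follow stand against the 65.4% of all genes called in the KO line with vehicle (32.6% higher, 32.8% lower) and the 68.1% in the WT line with vehicle (32.8% higher, 35.3% lower), and a share of called members near these is no result about a list. These lists, like those below, were chosen with earlier results of these data known, so their counts are description alone. Of 19 such genes, 7 were called higher and 11 lower in the KO line with vehicle (median log2 fold change -0.75, against 0.02 over all genes), and 5 higher and 9 lower in the WT line (median -0.33, against -0.03). With POVPC the counts were 6 higher and 10 lower in the KO line (median -0.76, 68.5% of all genes called) and 4 higher and 11 lower in the WT line (median -0.57, 66.1% called). In the WT line with vehicle Ccdc80, a matrix protein gene, was -3.81 ± 0.12 (27.6 ± 0.35 CPM in hypoxia and 386 ± 36 CPM in normoxia), Tgfb2, a TGF-beta ligand gene, was -1.79 ± 0.09, and Igfbp3, which binds insulin-like growth factors, was 2.42 ± 0.09 (717 ± 46.8 and 134 ± 11.6 CPM). Igfbp3 was -2.14 in the KO line with vehicle. Of 24 Hippo pathway genes, 10 were called higher and 8 lower in the KO line with vehicle and 7 higher and 14 lower in the WT line. There the TEAD factor genes Tead2 and Tead3 were -2.20 ± 0.08 and -2.14 ± 0.14, and Jub (Ajuba), an inhibitor of the LATS kinases, was 1.24 ± 0.08.

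**Figure D4:**
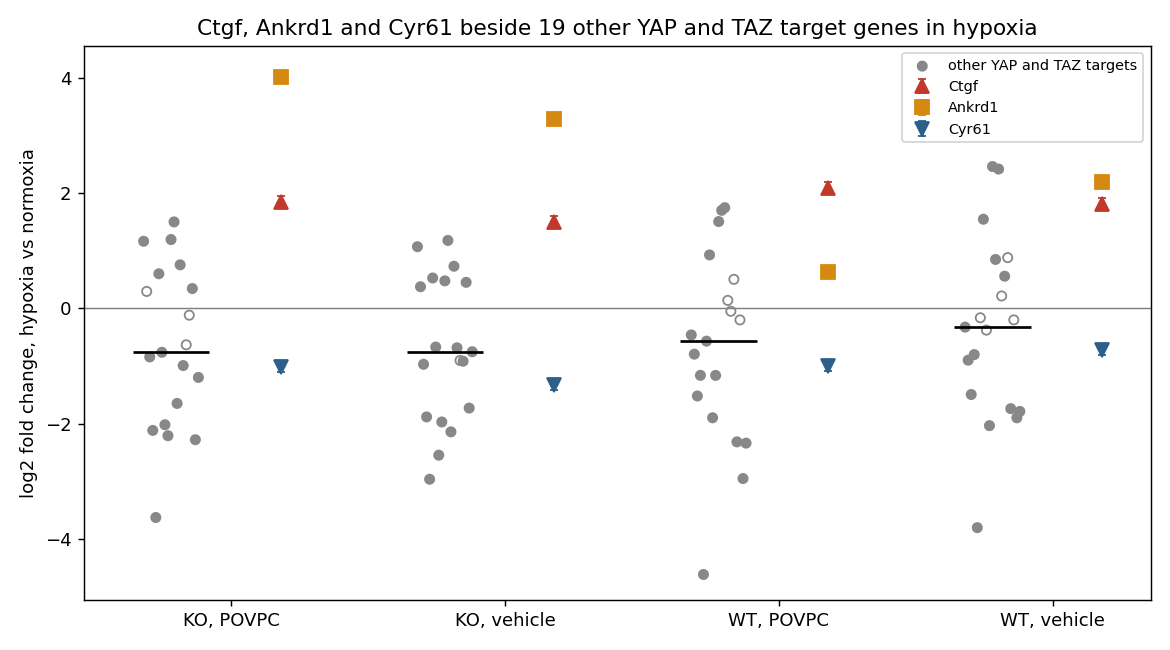
Log2 fold changes between hypoxia and normoxia for 19 other YAP and TAZ target genes (circles, filled where edgeR's FDR was under 0.05, black line at their median) and for Ctgf, Ankrd1 and Cyr61 (± SE), in each line and treatment. The medians lie at -0.76, -0.75, -0.57 and -0.33, with Ctgf and Ankrd1 above 0 and Cyr61 below 0 in all 4.

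Most canonical Wnt targets were lower in hypoxia, as Cyr61, Nov, Wisp1 and Wisp2 were, and a link between them was not tested. Of all genes, 32.8% were called lower in the KO line with vehicle and 35.3% in the WT line, and 65.4% and 68.1% in either direction. Of the 8 tested among 11 listed, 7 were called lower and 0 higher in hypoxia in the KO line with vehicle (median -2.85) and 6 lower and 0 higher in the WT line (median -1.44). Lgr5 there, a Wnt-amplifying receptor gene, was -1.94 ± 0.15, and Axin2, a feedback inhibitor, was -1.23 ± 0.17. Nkd1, another inhibitor, averaged 0.02 CPM in hypoxia and 14.6 CPM in normoxia. Of 16 TGF-beta ligands, receptors and SMAD targets, 4 were called higher and 9 lower in the KO line and 5 higher and 9 lower in the WT line (medians -0.48 and -0.53). Of the 18 SRF and MRTF factors and cytoskeletal targets, 3 were called higher and 7 lower in the KO line and 2 higher and 11 lower in the WT line, among them Acta2 (-3.07 ± 0.20) and Cnn2 (-1.59 ± 0.09), while Tagln was 1.39 ± 0.15. Among the receptors of CCN proteins, 11 of 12 were tested, and 1 was called higher and 8 lower in the KO line and 2 higher and 5 lower in the WT line. Itgb5 was -1.11 ± 0.07, Notch1 -1.90 ± 0.19 and Itgb3 1.10 ± 0.14 in the WT line.

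With POVPC in WT hypoxia 10 of the 19 YAP and TAZ targets were lower and 1 higher (median -0.33, against -0.01 over all genes), and in WT normoxia 4 were lower and 6 higher (median 0.04, against -0.02). Of all genes 21% were called in WT hypoxia and 26.9% in WT normoxia. The comparison in WT hypoxia holds the shallow libraries WT POVPC hypoxia 1 and 2, and the list counts were not rerun without them. Amotl2, an angiomotin-family gene, was -0.98 ± 0.08 in hypoxia (138 ± 5.31 CPM with POVPC and 271 ± 11.4 CPM with vehicle) and -0.84 ± 0.08 in normoxia (190 ± 15.2 and 340 ± 6.39 CPM). Of the 18 SRF and MRTF genes 7 were lower and 1 higher in WT hypoxia and 11 lower and 2 higher in WT normoxia, with Tagln at -3.28 ± 0.19 in hypoxia and Cnn2 at -1.22 ± 0.09 and Fhl2 at -1.43 ± 0.11 in normoxia. With POVPC in KO hypoxia, where 4.06% of all genes were called, 0 of the YAP and TAZ targets were higher and 2 lower, 1 of the SRF and MRTF genes was higher and 2 lower, 3 of the TGF-beta genes were higher and 1 lower, and 1 of the Hippo pathway genes was lower. In KO normoxia, where 0.0414% of all genes were called, 0 genes of these lists were called. Between the lines with vehicle in hypoxia, 3 of the 19 YAP and TAZ targets were higher and 9 lower in KO cells (median -0.26, 59.9% of all genes called), with Igfbp3 at -2.28 ± 0.09. In normoxia 6 were higher and 10 lower (median -0.25, 60.6% called), with Igfbp3 at 2.28 ± 0.09, Amotl2 at -1.39 ± 0.08 and Crim1 at -1.22 ± 0.10. In lesions 0 of 18 tested YAP and TAZ targets were called (median -0.06).

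The genes whose profile over the 24 culture libraries was most like that of a member were described by Pearson's r of log2 (CPM + 0.5), among the 11285 genes whose mean reached 1 CPM. The libraries share 8 groups and 2 lines, so that r largely reflects group means. Ctgf was most like Fgd3 (0.94), Pde4dip (0.94) and Dcbld2 (0.93), and Cyr61 most like Htra1 (0.96), Dstyk (0.94) and Smoc2 (0.94). Nov was most like Tfpi (0.97), Gaa (0.97) and Adcy5 (0.96), and Wisp1 most like Egfr, Rasl11a and Abat (0.98 each). Wisp2 was most like Scara3, Kcnh2 and Lum (0.99 each), and Ankrd1 most like Lmo7, Trmt6 and Pip4k2c (0.96, 0.96 and 0.95).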

How the data were processed

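RNA was sequenced from 8 lesion and 24 culture libraries. The values used are raw counts per gene, as deposited by the authors. Per the file headers, the authors counted them with featureCounts 1.4.4 on exons of an mm9 annotation, with reads of either strand taken and exons pooled under a gene name. A lesion count is a fragment, whereas the mates of a culture read pair were counted one by one. The submitters' processing notes also name CASAVA, STAR and DESeq2.

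From these counts, genes were kept by filterByExpr per group (at least 10 counts, total of at least 15) and scaled by TMM, and robust quasi-likelihood models were fitted with edgeR 4.0.16 in R 4.3.3. The lesion table (14993 genes) and the culture table (14496 genes, 8 groups in 1 model) were fitted apart, with an FDR under 0.05 as the threshold and no minimum fold. There were 21 comparisons, 15 between groups and 6 of a difference between effects. Tests were 2-sided, and TPM use the deposited gene lengths. Each SE is the size of the log2 fold change divided by the square root of F, and the intervals rest on it. Both are approximate at few counts, where the SE of different comparisons of a gene need not match. Counts limit the precision of low genes such as Wisp2 in hypoxia. The steps were tested on simulated data.

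The members and the gene lists were chosen with earlier results of these data known. From each list up to 3 genes with the smallest p are named per comparison described. Alternatives were RLE factors, library size alone, DESeq2 1.42.0, no filter, a filter at 5 CPM, a block for replicate number, non-robust fits, halved culture counts, groups fitted alone, and libraries left out.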

Additional observations from a re-analysis of the deposited data

Results flagged for a closer look

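Cyr61 in KO lesions was flagged because KO animal 1, at 114 CPM, stood away from the other 3 KO animals at 180 to 187 CPM: its gap to the nearest was 0.915 of the group's range. Of 12 groups of 4 animals so examined this was the only one, and chance flags about 1 in 20 groups.

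The other flagged results are effects that differed between the lines or between oxygen levels, by edgeR's test of the difference itself. Of 36 such tests on the 6 genes, 20 were called. All are in log2 units, and the values of the groups behind them are in the results above.

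The effect of POVPC, KO line minus WT line, differed in hypoxia for Ctgf (2.27), Cyr61 (1.20), Wisp1 (0.61), Wisp2 (1.67) and Ankrd1 (1.02), which is 5 of 6 genes, where 9.37% of all tested genes were called. In normoxia it differed for Ctgf (2.21), Cyr61 (0.62), Wisp1 (1.00) and Ankrd1 (-1.27), with 16.2% of all genes called. The Wisp1 call in hypoxia was lost without any of WT vehicle hypoxia 1, WT POVPC hypoxia 1 or 2, KO vehicle hypoxia 1 or KO POVPC hypoxia 1 (FDR 0.0521 to 0.0706), and the Wisp2 value there was 1.03 without WT POVPC hypoxia 3.

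The effect of hypoxia, KO line minus WT line, differed with POVPC for Wisp1 (1.39) and Ankrd1 (3.38), with 30% of all genes called. With vehicle it differed for Cyr61 (-0.60), Wisp1 (1.78), Wisp2 (-2.16) and Ankrd1 (1.10), with 39.1% called.

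The effect of POVPC in hypoxia minus that in normoxia differed in the KO line for Ankrd1 (0.73), with 0.642% of all genes called. In the WT line it differed for Nov (0.91), Wisp1 (0.54), Wisp2 (-1.92) and Ankrd1 (-1.56), with 23.5% called. The Nov call was lost without WT POVPC hypoxia 1 (0.67, FDR 0.0851) and the Wisp1 call without WT POVPC hypoxia 3 (0.29, FDR 0.142), where Wisp2 was -1.28.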

How the results depend on the processing

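Of the 87 called results among 126 tests, 78 kept their direction and call under every alternative run, and none of the 87 changed direction. Leaving out 1 library gave 0 to 0 called genes in lesions, 20 to 21 between the lines (20 with all libraries), 10 to 13 for POVPC (12), 24 to 24 for hypoxia, 11 to 11 for both agents together and 19 to 21 for the differences of effects (20). The replicate numbers gave no clear sign of pairing. Deviations of same-numbered libraries correlated at -0.67 to 0.12 in lesions, from only 4 pairs. In culture they correlated at -0.42 to 0.55 (median 0.04), with 29 of 84 pairs over 0.1. Differently numbered libraries correlated at -0.40 to 0.59 in lesions and at -0.52 to 0.54 in culture (median -0.02), with 53 of 168 culture pairs over 0.1. With the replicate number as a block, 11 in place of 12 POVPC results were called (Ankrd1 in KO hypoxia, 0.30, FDR 0.0539), and the other 5 counts were 0, 20, 24, 11 and 20, as without it.

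Beside the calls lost without a library named above, Wisp1 in the POVPC effect in hypoxia, KO minus WT, lost its call without the 3 shallowest libraries (0.34, FDR 0.358) and with groups fitted alone (0.60, FDR 0.0981), Wisp2 there with groups fitted alone (1.57, FDR 0.0861), and Nov in the POVPC effect in WT hypoxia minus normoxia without the 3 shallowest (0.54, FDR 0.23). Without these 3 the Wisp2 values of those differences were 2.66 and -2.90, and that of Wisp1 in WT hypoxia minus normoxia was 0.83. Calls gained were Ctgf in the hypoxia effect, KO minus WT with vehicle (-0.40, FDR 0.0253, no filter), Wisp1 between the lines with POVPC in hypoxia (-0.54, FDR 0.00118, without the 3 shallowest), Cyr61 in the POVPC effect in WT hypoxia minus normoxia (-0.42, FDR 0.00281, without WT POVPC hypoxia 3), Wisp2 for POVPC in WT normoxia (0.25, FDR 0.00481, groups fitted alone) and Wisp2 in the POVPC effect in normoxia, KO minus WT, in 7 settings (-0.47 to -0.57, FDR 0.00704 to 0.0481).

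Uncalled values changed sign. With library size alone they were -0.015 for Wisp2 in lesions, 0.014 for Wisp1 and 0.039 for Wisp2 with POVPC in KO normoxia and KO hypoxia, and -0.19 for Ctgf under both agents in the WT line, which was -0.011 with the filter at 5 CPM. Without the 3 shallowest libraries Nov with POVPC in WT hypoxia was -0.013, and Wisp2 in the hypoxia effect, KO minus WT with POVPC, was 0.91. Without KO animal 4 and WT animal 1 the lesion values were -0.16 (Wisp1), -0.34 (Wisp2) and -0.28 (Ankrd1). With 1 library left out the ranges were -0.063 to 0.51 (Wisp1), -0.24 to 0.22 (Wisp2), -0.12 to 0.32 (Ankrd1) and -0.29 to 0.044 (Cyr61) in lesions, -0.084 to 0.092 for Ctgf under both agents in the WT line, -0.66 to 0.49 (Wisp2) and -0.14 to 0.13 (Cyr61) for the hypoxia effect, KO minus WT with POVPC, -0.19 to 0.39 for Nov in the POVPC effect in hypoxia, KO minus WT, -0.33 to 0.025 for Wisp1 between the lines with POVPC in hypoxia, and -0.20 to 0.085 for Wisp2 with POVPC in KO hypoxia. The cause was not tested.

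Library size alone moved the median of all genes in hypoxia to -0.21 in the WT line with vehicle (TMM -0.03) and the share of higher calls to 36.4% (TMM 48.1%). The corresponding shares were 37.0% and 49.1% between the lines with vehicle in normoxia, 31.4% and 48.7% for POVPC in WT normoxia, 78.3% and 48.5% for POVPC in KO hypoxia, and 34.8% and 47.8% for both agents in the WT line. For the POVPC effect, KO minus WT, they were 80.6% and 62.9% in hypoxia and 73.3% and 50.5% in normoxia, for the hypoxia effect with vehicle 60.1% and 49.2%, and for the POVPC effect, hypoxia minus normoxia, 70.0% and 44.1% in KO and 57.8% and 43.0% in WT. All genes called (as reported, in parentheses) for POVPC in WT hypoxia numbered 1073 without the 3 shallowest libraries and 1720 with groups fitted alone (3037), and in KO normoxia 16 with DESeq2, 3 with library size alone or without robust estimation and 0 with groups fitted alone (6). In KO hypoxia they were 341 with library size alone and 1012 with DESeq2 (588). For the POVPC effect in hypoxia, KO minus WT, they were 426 without the 3 shallowest and 828 with groups fitted alone (1358), and for that effect in hypoxia minus normoxia 30 with library size alone and 260 with DESeq2 in KO (93) and 1992 without the 3 shallowest in WT (3413). In lesions they were 489 with DESeq2, 11 with no filter and 1 without KO animal 4 and WT animal 1 (0).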
